A study of Mus musculus with 8 samples.

Results

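The 10 genes described here encode the core proteins with which cells display peptides to T cells. They are B2m, H2-K1, H2-D1, Tap1, Tap2, Tapbp, Cd74, H2-Aa, H2-Ab1 and H2-Eb1. They were taken as a list of names, chosen with earlier results of these data known. Their values set no threshold, and their Ensembl identifiers matched 10 of the 37980 gene rows. All 10 passed the filter on low values that left 11451 genes for testing. That filter kept genes that reached 10 normalised counts in 4 or more of the 8 libraries.

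Major histocompatibility complex (MHC) class I molecules pair a heavy chain, such as that of H2-K1 or H2-D1, with the light chain beta-2-microglobulin (B2m) on nearly all nucleated cells. Peptides cut by the proteasome are pumped into the endoplasmic reticulum by the transporter made of Tap1 and Tap2, and tapasin (Tapbp) holds empty class I molecules to it. MHC class II molecules pair an alpha with a beta chain, assemble on the invariant chain Cd74 and carry peptides from endosomes; they are best known from dendritic cells, B cells and macrophages, and blood progenitors can also carry them.

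RNA was sequenced from multipotent progenitors (MPPs) of mouse bone marrow, cells that can form every blood lineage for a limited time. They were sorted as lineage-negative cells that carried c-Kit, Sca1 and CD135 and lacked CD48 and CD150, with 1000 cells per library and 4 libraries in each group, named here NA1 to NA4 and WT1 to WT4. The NA group came from C57BL/6 mice of genotype NA LSL/+; Vav-Cre, in which Cre driven by Vav sequences in blood cells switches on the fusion NUP98-HOXA10hd (NA), and the wild-type (WT) group came from CD45.2 mice of matched age with no fusion or Cre allele named. The age of the mice and the number of mice behind each group were not given in the sources used here, so p-values measure the spread between libraries, which may be partly technical.

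The sequences before the transcription starts show how the members differ in the letters nearest to their starts. Each line gives the 250 bases before the RefSeq start (GRCm38.p6), 5′ to 3′ on the strand of the gene. The windows lie at chr2:122147437-122147686 (B2m, plus strand), chr17:34000348-34000597 (H2-K1, minus strand, the first of 2 windows listed), chr17:35262844-35263093 (H2-D1, plus strand, inside the GENCODE gene), chr17:34187306-34187555 (Tap1, plus strand), chr17:34287824-34288073 (H2-Aa, minus strand) and chr17:34305617-34305866 (H2-Eb1, plus strand). Capitals mark CCAAT, the letters bound by NF-Y, GGGATTCCC, a kappaB-type site, TTTCACTTC, an interferon response type of sequence, and ATGATGC, on either strand. These letters were chosen after the sequences had been seen, and no 2 of the marked matches overlap. Shown are the light chain, both heavy chains, a transporter gene and 2 class II chains, while Tap2, H2-Ab1, Cd74 and Tapbp are not shown. No window was available for Tap2 and H2-Ab1. Cd74 was left out by choice, and no search result is given for it. The Tapbp window held CCAAT and none of the other letters searched.
B2m: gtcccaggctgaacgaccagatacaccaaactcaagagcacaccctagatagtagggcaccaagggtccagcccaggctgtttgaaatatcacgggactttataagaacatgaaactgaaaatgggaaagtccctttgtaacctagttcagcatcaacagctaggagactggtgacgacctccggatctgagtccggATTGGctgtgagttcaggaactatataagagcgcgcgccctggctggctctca
H2-K1: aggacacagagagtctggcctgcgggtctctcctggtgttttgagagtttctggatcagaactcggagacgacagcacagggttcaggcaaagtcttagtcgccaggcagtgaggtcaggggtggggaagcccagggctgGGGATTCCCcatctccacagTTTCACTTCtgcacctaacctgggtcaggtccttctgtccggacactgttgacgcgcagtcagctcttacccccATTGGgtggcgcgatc
H2-D1: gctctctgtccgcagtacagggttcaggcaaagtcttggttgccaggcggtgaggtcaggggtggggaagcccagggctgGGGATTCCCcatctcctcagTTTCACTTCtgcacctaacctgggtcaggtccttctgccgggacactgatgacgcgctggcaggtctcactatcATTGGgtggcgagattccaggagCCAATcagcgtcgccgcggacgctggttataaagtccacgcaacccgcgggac
Tap1: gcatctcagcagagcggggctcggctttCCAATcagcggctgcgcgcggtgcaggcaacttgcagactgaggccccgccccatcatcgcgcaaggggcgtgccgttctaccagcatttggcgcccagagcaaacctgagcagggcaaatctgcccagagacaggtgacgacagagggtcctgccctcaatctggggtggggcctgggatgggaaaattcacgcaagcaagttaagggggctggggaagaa
H2-Aa: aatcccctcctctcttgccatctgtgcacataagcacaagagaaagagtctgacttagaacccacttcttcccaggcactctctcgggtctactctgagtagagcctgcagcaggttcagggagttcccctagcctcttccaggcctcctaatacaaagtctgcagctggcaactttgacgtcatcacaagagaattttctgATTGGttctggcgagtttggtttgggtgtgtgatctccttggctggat
H2-Eb1: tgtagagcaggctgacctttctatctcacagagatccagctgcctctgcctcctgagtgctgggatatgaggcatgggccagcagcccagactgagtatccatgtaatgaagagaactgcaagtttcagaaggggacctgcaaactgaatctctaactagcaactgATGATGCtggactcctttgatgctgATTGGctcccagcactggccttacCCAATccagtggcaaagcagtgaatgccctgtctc
CCAAT stood in each of the 6 windows shown, and 33.8% of the 32851 RefSeq promoter windows of this length hold it. GGGATTCCC and TTTCACTTC stood close together in H2-K1 and H2-D1 and in none of the other 4 shown, against 0.301% and 0.402% of all windows. ATGATGC, letters taken from H2-Eb1, stood only in H2-Eb1 among the 6, against 1.99% of all windows. Its presence there was therefore fixed by the choice of letters. Only these exact spellings were searched, so letters in lower case may hold other forms of such sites. A window without a match is therefore not shown to lack them. A match of letters is no evidence that a factor was bound in these cells.

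The values are normalised counts, that is RSEM expected counts that the authors had divided by 1 size factor per library. Estimated depth was between 3876904 and 4916984 reads, and the values of the 10 members rested on 60 to 22905 estimated reads in a library. Hoxa10, whose row cannot tell reads of the fusion from those of the normal gene, averaged 324 ± 32.0 in the NA and 139 ± 8.0 in the WT libraries (SD, 4 libraries each), and the groups did not overlap. Xist was between 0.940 and 2.80 in NA and between 869 and 1285 in WT, and the Y-linked Ddx3y was between 281 and 668 in NA and at most 0.888 in WT, with Eif2s3y, Kdm5d and Uty likewise high in NA and near 0 in WT. The sex of the mice was not in the labels. By these transcripts the NA libraries read as male and the WT libraries as female, without overlap. Genotype and sex therefore cannot be told apart in any result given here. NA4 lay between the other 3 NA libraries for 67.7% of genes and WT4 between the other 3 WT libraries for 75.2%, against 38.1% to 50.2% for the other 6 libraries, where 50% is the value for independent libraries. The calls are therefore also given without the fourth library of both groups. For the 5 members without a call, adjusted p was between 0.253 and 0.794 in that setting (limma). Over all genes 1152 rose and 901 fell in NA, and with scaling by the total count 925 rose and 1314 fell.

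In NA MPPs both chains of the class II molecule I-A, H2-Aa and H2-Ab1, rose, and the class I light chain B2m and the transporter genes Tap1 and Tap2 fell. The other genes, H2-K1, H2-D1, Tapbp, Cd74 and H2-Eb1, stayed short of the threshold, an adjusted p of 0.05 over all genes tested by limma. Thus 2 of the 10 rose, where 10.1% of all tested genes did, and 3 of the 10 fell, where 7.87% did. The NA and WT values did not overlap for 4 of the 10, against 22% of all tested genes. Without the fourth libraries 1 of the 10 rose (H2-Ab1) and 1 fell (B2m), against 3.26% and 1.25% of 11494 genes. Because the 10 genes were chosen with earlier results of these data known, these shares are a description and no test of the list. The median log2 fold change of the 10 was -0.09, and that of all tested genes was -0.01. In these bulk libraries fewer cells that express a gene and less RNA per cell cannot be told apart.

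**Figure D1:**
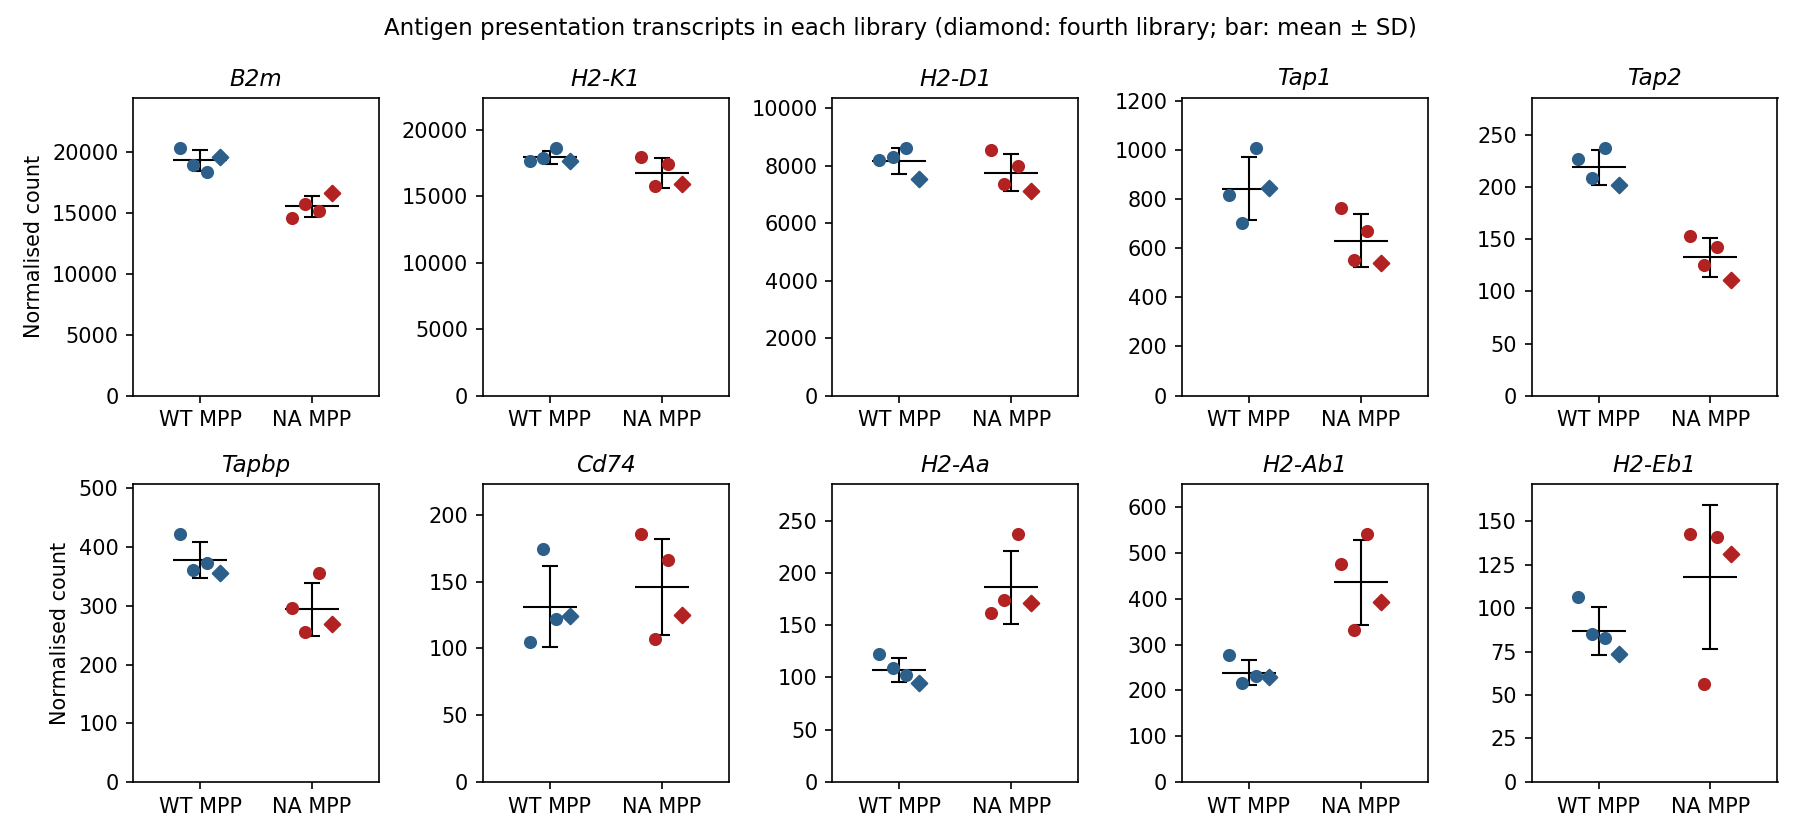
Normalised count (y axis, linear, from 0) of each of the 10 genes in the 4 WT MPP and 4 NA MPP libraries, with circles for libraries 1 to 3, diamonds for the fourth libraries and bars for the mean ± SD. The groups are apart for B2m, Tap2, H2-Aa and H2-Ab1 and overlap for the other 6 genes.

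The light chain fell, and neither heavy chain passed the test. B2m (ENSMUSG00000060802, chr2:122147686-122153083, mm10) was at 14591, 15708, 15135 and 16605 normalised counts in NA1 to NA4 and at 20334, 18921, 18320 and 19543 in WT1 to WT4. Every NA library was below every WT library. The group means were 15510 ± 861 and 19280 ± 862 (SD, n = 4 each), and the log2 fold change was -0.31 ± 0.0689 (SE), that is 1.24-fold lower in NA (limma, adjusted p = 0.00677). Leaving out the fourth libraries moved it to -0.34 (limma, adjusted p = 0.0229).

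H2-K1 (ENSMUSG00000061232, chr17:33996017-34000347), the K heavy chain, was at 17956, 15724, 17420 and 15903 normalised counts in NA1 to NA4 and at 17602, 17876, 18644 and 17621 in WT1 to WT4. NA1 lay inside the WT range and the other 3 NA libraries below it. The log2 fold change was -0.10 (95% interval -0.25 to 0.05, limma, adjusted p = 0.334). H2-D1 (ENSMUSG00000073411, chr17:35262730-35267499), the D heavy chain, was at 8545, 7369, 8000 and 7128 in NA1 to NA4 and at 8194, 8300, 8630 and 7530 in WT1 to WT4. Its groups overlapped, and the log2 fold change was -0.07 (95% interval -0.24 to 0.09, limma, adjusted p = 0.530). Both intervals leave out the B2m estimate of -0.31 but overlap its 95% interval of -0.46 to -0.17 (limma). The difference between the light chain and the heavy chains was not tested. Heavy chains resemble each other, and 8.79% of the 50-base words of H2-K1 and 14.3% of those of H2-D1 also occur in other genes, so their counts depend on how RSEM split shared reads. The ratio of H2-K1 to H2-D1 was between 2.10 and 2.23 in NA and between 2.15 and 2.34 in WT. The ratio of B2m to H2-K1 was between 0.813 and 1.04 in NA and between 0.983 and 1.16 in WT.

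Both subunits of the peptide transporter were lower in NA MPPs, and only Tap2 separated the groups. Tap2 (ENSMUSG00000024339, chr17:34203527-34216321) was at 153, 125, 142 and 111 normalised counts in NA1 to NA4 and at 227, 208, 238 and 202 in WT1 to WT4. The highest NA value was below the lowest WT value. Its log2 fold change was -0.72 ± 0.147 (SE), or 1.65-fold lower in NA (limma, adjusted p = 0.00426), and -0.68 without the fourth libraries, where the call was lost (limma, adjusted p = 0.0620).

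Tap1 (ENSMUSG00000037321, chr17:34187553-34197225) was at 763, 552, 670 and 539 normalised counts in NA1 to NA4 and at 815, 701, 1009 and 843 in WT1 to WT4. NA1 lay above WT2, so the groups overlapped. The log2 fold change was -0.42 ± 0.131 (SE), or 1.34-fold lower in NA (limma, adjusted p = 0.0399). It was -0.34 without the fourth libraries (limma, adjusted p = 0.252), and the call was also lost when NA2, NA4, WT1, WT3 or WT4 alone was left out, with adjusted p between 0.0640 and 0.131. The ratio of Tap2 to Tap1 was between 0.201 and 0.227 in NA and between 0.236 and 0.297 in WT, without overlap.

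Tapbp (ENSMUSG00000024308, chr17:33915899-33929292) was at 296, 255, 356 and 269 normalised counts in NA1 to NA4 and at 423, 361, 372 and 356 in WT1 to WT4. NA3 reached the lowest WT value and the other 3 NA libraries lay below it. The log2 fold change was -0.37 (95% interval -0.64 to -0.10, limma, adjusted p = 0.0554), and without NA3 it was -0.47 (limma, adjusted p = 0.0152). The summed normalised counts of Tap1, Tap2 and Tapbp were between 919 and 1212 in NA and between 1271 and 1619 in WT. The GENCODE annotation places Psmb9 on the opposite strand over part of Tap1, Patl2 over part of B2m and antisense genes over parts of Tap2, Tapbp and H2-Eb1, and Zbtb22 overlaps Tapbp on its own strand. The use of strand in counting was not stated, so reads of these pairs cannot be told apart.

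The chains of the class II molecule I-A rose. H2-Ab1 (ENSMUSG00000073421, chr17:34257689-34269419), the I-A beta chain, was at 476, 332, 542 and 393 normalised counts in NA1 to NA4 and at 278, 215, 232 and 228 in WT1 to WT4. Every NA library was above every WT library. The group means were 436 ± 92.2 and 238 ± 27.3 (SD, n = 4 each), and the log2 fold change was 0.85 ± 0.151 (SE), or 1.80-fold higher in NA (limma, adjusted p = 0.00179). Without the fourth libraries it was 0.87 (limma, adjusted p = 0.0225).

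H2-Aa (ENSMUSG00000036594, chr17:34282744-34287823), the I-A alpha chain, was at 161, 174, 237 and 171 normalised counts in NA1 to NA4 and at 122, 109, 102 and 95 in WT1 to WT4. The groups were again apart, and NA3 was the highest library for both I-A chains. The log2 fold change was 0.78 ± 0.167 (SE), or 1.72-fold higher in NA (limma, adjusted p = 0.00589). With the fourth libraries left out it was 0.76, and the call was lost (limma, adjusted p = 0.0723). The ratio of H2-Ab1 to H2-Aa was between 1.91 and 2.95 in NA and between 1.98 and 2.40 in WT, so the beta to alpha ratio overlapped between the groups.

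H2-Eb1 (ENSMUSG00000060586, chr17:34305867-34316674), the beta chain of the class II molecule I-E, was at 143, 56.4, 141 and 131 normalised counts in NA1 to NA4 and at 106, 84.9, 83.1 and 73.7 in WT1 to WT4. Of the NA libraries, 3 lay above the whole WT range and NA2 lay below it. The log2 fold change was 0.35 (95% interval -0.23 to 0.94, limma, adjusted p = 0.389), and without NA2 it was 0.67 (limma, adjusted p = 0.0330). C57BL/6 mice have no working gene for the alpha chain of I-E, and its pseudogene row H2-Ea-ps was at 0 in all 8 libraries.

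Cd74 (ENSMUSG00000024610, chr18:60803848-60812652), which fills the groove of new class II molecules and steers them to endosomes, did not pass the test. It was at 186, 107, 166 and 125 normalised counts in NA1 to NA4 and at 105, 174, 122 and 124 in WT1 to WT4. The groups overlapped, and the log2 fold change was 0.14 (95% interval -0.30 to 0.59, limma, adjusted p = 0.664). The ratio of H2-Ab1 to Cd74 was between 2.56 and 3.26 in NA and between 1.23 and 2.65 in WT, where only WT1 reached the NA range.

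The 4 class II members made up a larger share of their sum with B2m, H2-K1 and H2-D1 in NA MPPs. Other class I and class II genes were not counted, such as H2-DMa, with a mean of 1482 normalised counts in NA and 1267 in WT. The 4 class II genes (Cd74, H2-Aa, H2-Ab1 and H2-Eb1), taken as a share of their sum with B2m, H2-K1 and H2-D1, held 2.30%, 1.70%, 2.61% and 2.03% of the normalised counts in NA1 to NA4 and 1.31%, 1.28%, 1.17% and 1.15% in WT1 to WT4. The mean share was 2.16% ± 0.389 in NA and 1.23% ± 0.0773 in WT (SD, n = 4 each). It is given as a description, since B2m is a large part of the sum: without B2m the share was 3.47% ± 0.525 in NA and 2.12% ± 0.166 in WT, and the groups were still apart.

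**Figure D2:**
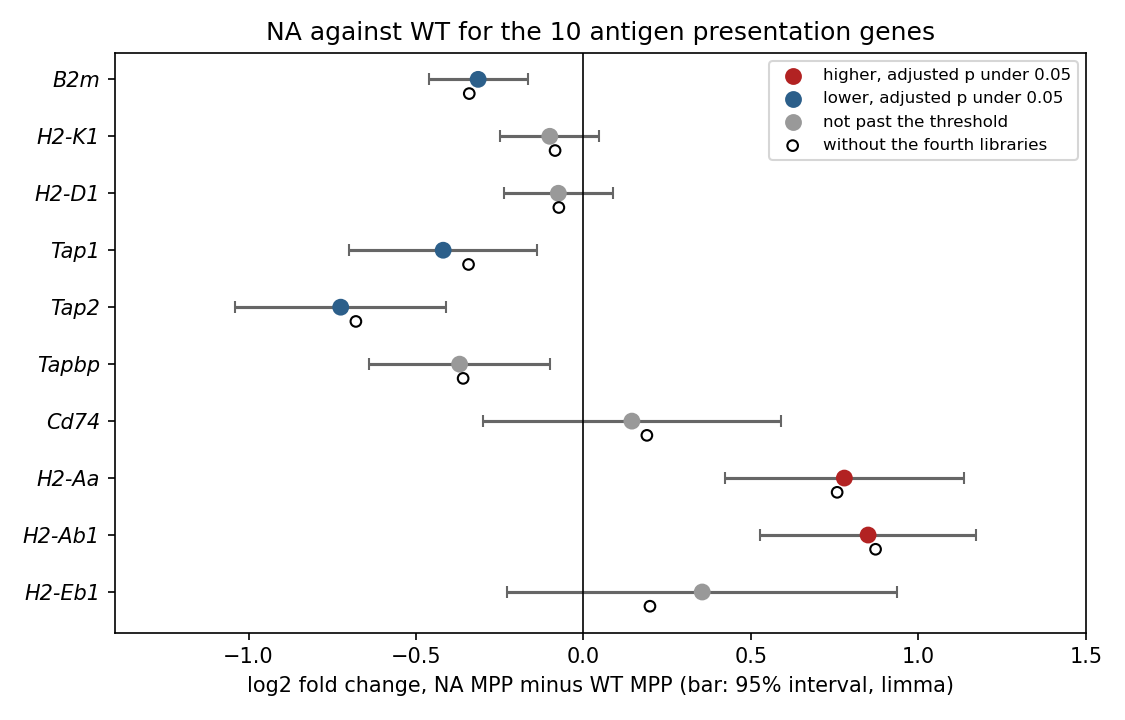
log2 fold change of each gene, NA MPP minus WT MPP, on log2(normalised count + 1), with filled points for all 8 libraries, bars for the 95% interval from limma and open circles for the values without the fourth libraries. The 6 class I genes lie at or below -0.07 and the 4 class II genes at or above 0.14, and the value of H2-Eb1 moved most without the fourth libraries.

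Per kilobase of transcript, the class I light and heavy chains were the most abundant by far. In WT MPPs the mean normalised count per kilobase was 22418 for B2m, 11078 for H2-K1 and 3884 for H2-D1, then 285 for Tap1, 197 for H2-Ab1, 130 for Tapbp, 95 for H2-Aa, 93.1 for Cd74, 63.6 for Tap2 and 52.2 for H2-Eb1. In NA MPPs it was 18035 for B2m, 10346 for H2-K1 and 3692 for H2-D1, then 360 for H2-Ab1, 214 for Tap1, 165 for H2-Aa, 104 for Cd74, 101 for Tapbp, 70.6 for H2-Eb1 and 38.6 for Tap2. H2-Ab1 thus stood above Tap1 in NA, where their ranges were apart, and below it in WT, where they were apart as well. Neighbours in the order whose ranges overlapped were H2-Aa with Cd74 and Tap2 with H2-Eb1 in WT, and Tap1 with H2-Aa, Cd74 with Tapbp and H2-Eb1 with Tap2 in NA. Lengths were those of the longest protein-coding transcript of each gene in GENCODE M21.

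The genes whose profiles over the 8 libraries were closest to that of B2m, among 8999 other genes with a mean of at least 50, were Sash3, Psmg4 and Chmp3. Their root mean square difference from the centred log2 profile of B2m was 0.0466, 0.0491 and 0.0513. The closest to Cd74 were Fam193b (0.0855), Susd3 (0.112) and Tbc1d17 (0.119). No other member was among them.

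**Figure D3:**
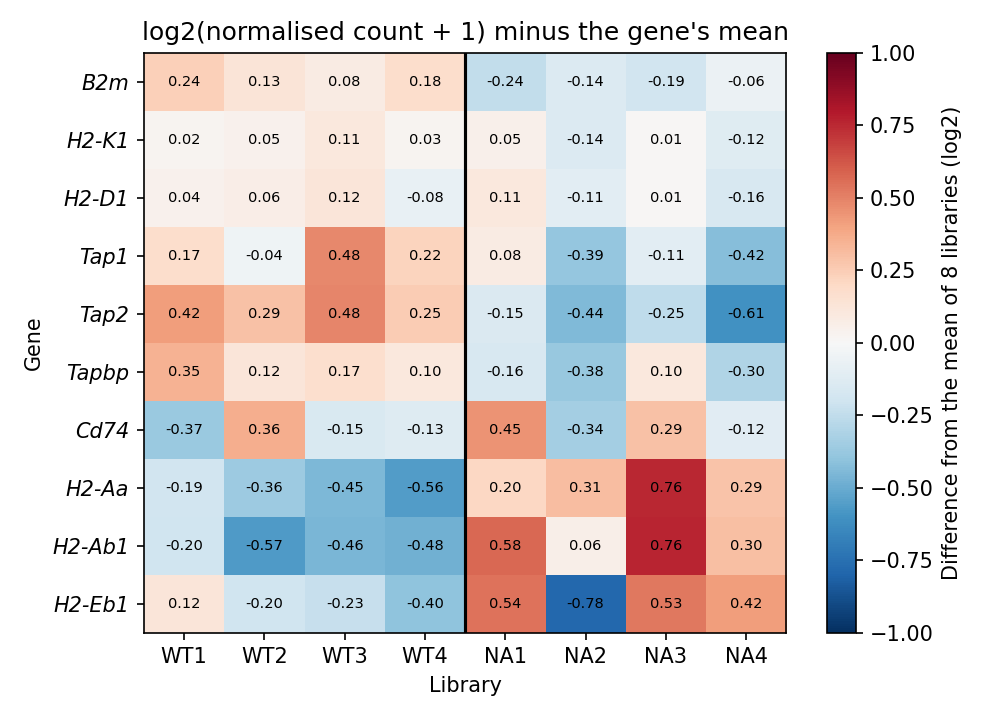
log2(normalised count + 1) of each gene (rows) in each library (columns) minus its mean over the 8 libraries, with red above and blue below the mean and the value printed in each cell. B2m and Tap2 are above 0 in all WT and below 0 in all NA libraries, H2-Aa and H2-Ab1 the reverse, and Cd74 has both signs in both groups.

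Beyond the 10 members, 73 further genes of 6 lists around antigen presentation were looked up, of which 62 passed the filter. Of these, 8 rose and 5 fell in NA MPPs, which is close to the 10.1% and 7.87% of all tested genes, with a median log2 fold change of 0.0086, where that of all tested genes was -0.01. Without the fourth libraries only H2-M3 and Ifngr1 remained, 2 higher and 0 lower (limma). At an unadjusted p under 0.05 there were 15 higher and 10 lower with all libraries, and 7 higher and 6 lower without the fourth. The shares of 10.1% and 7.87% are also the background for the count of each single list, and no list was tested against them.

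Of the 13 other class I and class I-like chains tested, 1 rose, and the median log2 fold change was -0.01. H2-M3, a class I-like chain that presents formylated peptides, was at 323, 298, 291 and 326 normalised counts in NA1 to NA4 and at 80.8, 132, 74.0 and 96.8 in WT1 to WT4, a log2 fold change of 1.71 ± 0.176 (SE, limma, adjusted p = 2.14e-05). Every NA library was above every WT library, and the value without the fourth libraries was 1.70 (limma, adjusted p = 0.00100). Hfe, a class I-like regulator of iron uptake, had the lowest value of the list, -0.72, and did not pass (limma, adjusted p = 0.147).

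Of 13 other genes of class I peptide supply and loading, 2 rose and 2 fell, with a median of 0.04. Psme1 and Psme2, the subunits of the proteasome activator PA28, had log2 fold changes of -0.33 (limma, adjusted p = 0.00923) and -0.28 (limma, adjusted p = 0.0408). Psme1 was between 1143 and 1291 in NA and between 1478 and 1625 in WT. Canx, the chaperone calnexin, had 0.26 (limma, adjusted p = 0.0322) and Ide, a peptidase, 0.36 (limma, adjusted p = 0.0419). Psmb8 and Psmb10, immunoproteasome subunits, had -0.14 and -0.22 and did not pass (limma, adjusted p = 0.278 and 0.112). Lnpep, an aminopeptidase, had the highest value, 1.25, and did not pass (limma, adjusted p = 0.0782). None of the 4 calls held without the fourth libraries, where adjusted p was between 0.0774 and 0.253.

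Of 5 other class II chains and exchange factors tested, with a median of 0.20, 0 passed (limma), and 2 were higher at an unadjusted p under 0.05. H2-DMa, which with a DM beta chain removes the invariant chain peptide from class II, was between 1310 and 1685 in NA and between 1190 and 1444 in WT (log2 fold change 0.23, limma, adjusted p = 0.121), and H2-DMb1 had -0.0037 (limma, adjusted p = 0.990). Of 9 lysosomal genes tested, 2 fell, with a median of 0.10. They were Ctss, the protease cathepsin S that trims the invariant chain, at 266 to 317 in NA and 342 to 392 in WT (log2 fold change -0.37, limma, adjusted p = 0.0327), and Cst3, the cysteine protease inhibitor cystatin C, at 1381 to 1658 in NA and 1767 to 2137 in WT (log2 fold change -0.37, limma, adjusted p = 0.0127). Ifi30, a lysosomal thiol reductase, had the highest value, 0.43, and did not pass (limma, adjusted p = 0.621). Leaving out the fourth libraries, neither Ctss (limma, adjusted p = 0.214) nor Cst3 (limma, adjusted p = 0.0787) passed.

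Of 19 regulators tested, 4 rose and 1 fell, with a median of -0.0037. Ifngr1, a chain of the interferon gamma receptor, was at 620, 732, 728 and 698 normalised counts in NA1 to NA4 and at 242, 323, 280 and 287 in WT1 to WT4, a log2 fold change of 1.30 ± 0.112 (SE, limma, adjusted p = 4.39e-06), and 1.30 without the fourth libraries (limma, adjusted p = 0.000323). The groups did not overlap. Its partner chain Ifngr2 had -0.13 and did not pass (limma, adjusted p = 0.737). Irf1, an interferon-induced activator of class I genes, was at 1295, 1402, 1919 and 1423 in NA1 to NA4 and at 962, 1186, 1141 and 1009 in WT1 to WT4 (log2 fold change 0.48, limma, adjusted p = 0.0122). Irf2, a related factor, had 0.73 (limma, adjusted p = 0.0371), and Creb1, which binds the X2 box of class II promoters, 0.31 (limma, adjusted p = 0.0378). Irf8, a factor of dendritic cell and monocyte development, fell, with 13.2 to 30.8 in NA and 37.3 to 58.1 in WT (log2 fold change -1.06, limma, adjusted p = 0.0335). Without the fourth libraries Irf1, Irf2, Creb1 and Irf8 did not pass, with adjusted p between 0.0840 and 0.230.

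The co-activator of class I genes did not pass the test, and that of class II genes was too low to be tested. Nlrc5, the co-activator of class I genes, was between 310 and 519 normalised counts in NA and between 347 and 385 in WT (log2 fold change 0.13, limma, adjusted p = 0.542). Ciita, the co-activator of class II genes, was at 0, 0.940, 6.46 and 1.18 in NA1 to NA4 and at 5.33, 0, 0 and 2.66 in WT1 to WT4, at most 7 estimated reads in a library. It did not pass the filter, and a difference was not detectable at this depth. Rfx5, which binds the X box of class II promoters, had -0.0037 and did not pass (limma, adjusted p = 0.992).

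Of 3 costimulatory and checkpoint ligands tested, Pdcd1lg2, a ligand of PD-1, rose from between 15.1 and 24.9 normalised counts in WT to between 35.5 and 55.5 in NA (log2 fold change 1.01, limma, adjusted p = 0.0330). This call was lost without the fourth libraries (limma, adjusted p = 0.187). Cd86, a costimulatory ligand, was at 202, 93.1, 70.2 and 111 in NA1 to NA4 and at 150, 205, 256 and 168 in WT1 to WT4 (log2 fold change -0.79, limma, adjusted p = 0.0571), where NA1 lay inside the WT range. Cd80 and Cd40 held at most 4 estimated reads and were not tested.

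**Figure D4:**
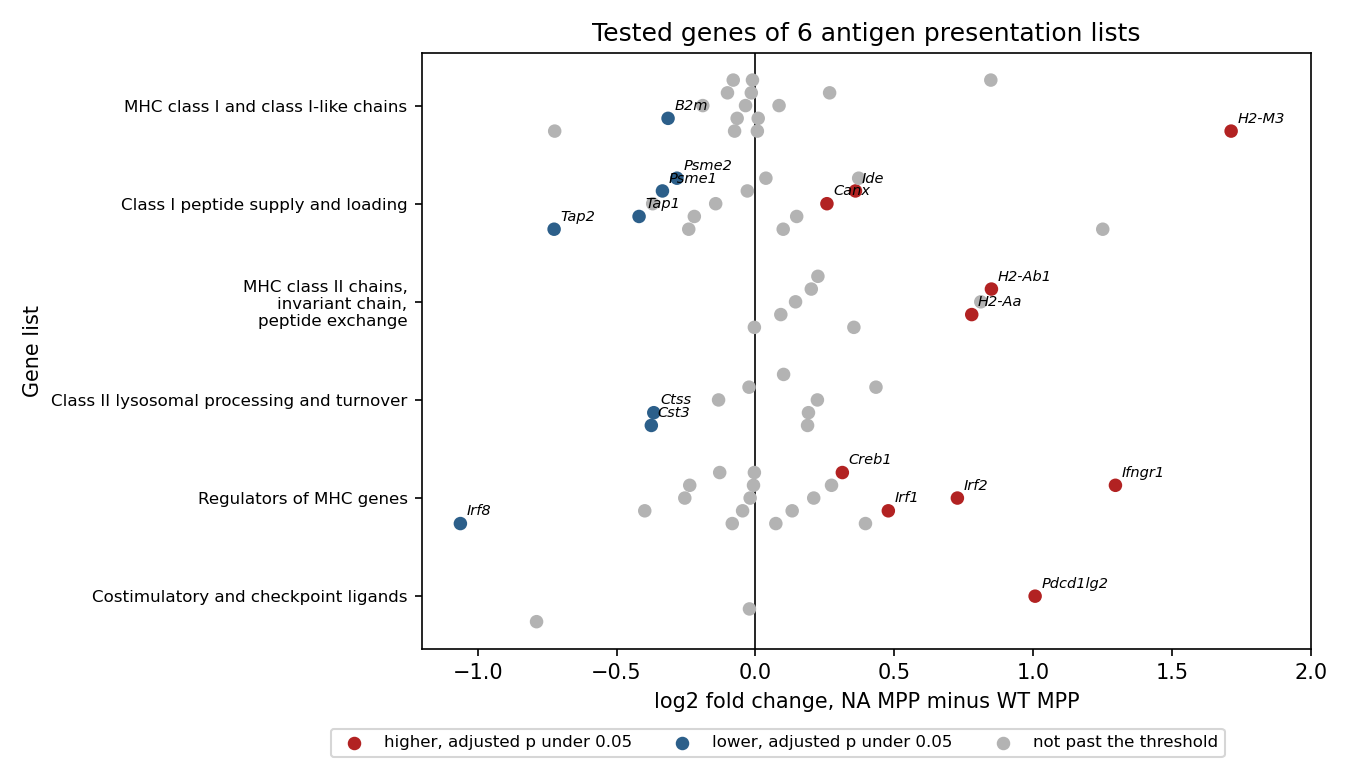
log2 fold change (x axis, NA MPP minus WT MPP) of the tested genes in the 6 lists (y axis, points spread vertically only to part them), members included, with red for higher and blue for lower at an adjusted p of 0.05 and gray for the rest. H2-M3 at 1.71 and Ifngr1 at 1.30 lie farthest to the right among the called genes and Irf8 at -1.06 farthest to the left.

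Because class II genes are high in dendritic cells, B cells and macrophages, their markers are given beside the rise of H2-Aa and H2-Ab1. Of 10 dendritic cell markers, Cd209a, Cd300c and Batf3 were at 0 in all 8 libraries, and the list summed to between 43.2 and 56.0 normalised counts in NA and between 22.8 and 44.4 in WT. Zbtb46, the most abundant of them, was between 12 and 31.0 in NA and between 6.83 and 21.3 in WT and did not pass (limma, adjusted p = 0.642). Of the others, all too low to be tested, the mean was higher in NA for Clec9a (16.6 against 3.17), Clec10a (5.68 against 2.69) and Xcr1 (0.993 against 0.507) and lower in NA for Siglech (0.470 against 3.45), Ccr7 (4.52 against 6.14) and Itgax (0 against 0.444). Clec9a was between 6.58 and 27.1 in NA and between 0 and 6.21 in WT, without overlap. The groups overlapped for the other dendritic cell markers named here. Of 10 B cell markers, Ms4a1, Pax5, Cd22 and Igll1 were at 0 in all libraries, and the list summed to between 101 and 239 in NA and between 182 and 269 in WT, mostly from Cd79b, which did not pass (limma, adjusted p = 0.157). The 10 monocyte and macrophage markers summed to between 1684 and 1773 in NA and between 1781 and 2107 in WT. Most of this came from Lyz2, which did not pass (limma, adjusted p = 0.364). The mean of each marker in that list was lower in NA, and all but Lyz2 and C1qb were too low to be tested. C1qb was between 0 and 20.5 in NA and between 15.9 and 41.0 in WT and did not pass (limma, adjusted p = 0.128). Ccr2 was at 0 in every NA library and between 3.55 and 14.7 in WT. By comparison, the 4 class II members summed to between 669 and 1087 in NA and between 521 and 612 in WT. Of 10 T cell and NK cell markers, 7 were at 0 in all libraries, Cd3d, Cd3e and Cd3g among them, and the list summed to between 148 and 171 in NA and between 134 and 153 in WT, mostly from Nkg7 (limma, adjusted p = 0.492). The neutrophil list summed to between 20.7 and 41.5 in NA and between 45.3 and 371 in WT, with Ly6g, Elane and Retnlg at 0, and the erythroid list to between 35.4 and 64.9 in NA and between 147 and 296 in WT, with Alas2 and Slc4a1 at 0. Of the neutrophil genes, Mpo fell (log2 fold change -1.50, limma, adjusted p = 0.0422, lost without the fourth libraries with adjusted p = 0.143) and S100a9, the most abundant, did not pass (limma, adjusted p = 0.0545). Of the erythroid genes, Hbb-bt, a beta globin, was between 28.3 and 56.4 in NA and between 131 and 185 in WT (log2 fold change -1.99, limma, adjusted p = 6.79e-05, and 0.00282 without the fourth libraries). The part of any of these cells in the results was not tested.

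The markers of the sort were present. Kit was between 1103 and 1490 normalised counts in the 8 libraries and Flt3, which encodes CD135, between 1274 and 1498. Cd34, which was not part of the gate, was between 3239 and 3854. Ly6a, which encodes Sca1, was between 1221 and 1408 in NA and between 1482 and 1614 in WT (log2 fold change -0.28, limma, adjusted p = 0.0257). That call was lost without the fourth libraries (adjusted p = 0.164) and when any 1 library other than NA3 and WT2 was left out (adjusted p up to 0.0739). Cd48, absent from the sorted cells by gate, was between 12.2 and 22.4 in NA and between 34.2 and 83.8 in WT (log2 fold change -1.58, limma, adjusted p = 0.00711, and 0.0676 without the fourth libraries), and Slamf1, which encodes CD150, between 3.69 and 47.9 in all. Their part in the differences of the members was not tested.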

How the data were processed

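The table covered 8 libraries. The authors aligned and quantified the reads with RSEM and analysed them with DESeq2 (versions and strand use not given in the sources used here), with mm10 named in the submitters' processing notes. The deposited values are a normalised signal, since 98.3% to 98.8% of values between 0.5 and 20 were whole multiples of 1 step per library within a tolerance of 0.02. Dividing by the step gave estimated reads, used only for depth. NA was compared with WT by limma 3.58.1 (R 4.3.3), two-sided with a mean-variance trend and no covariates, on log2(value + 1), which shrinks changes of low genes, with Benjamini-Hochberg adjustment over 11451 genes. The script was first tested on simulated data. Symbols, positions and lengths came from GENCODE M21, of the same build, which named 93.8% of rows above 0.

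The members and lists were chosen with earlier results of these data known. Named were all members, every called gene of the lists, the largest and smallest change of each list, called or most abundant markers, sort and sex-linked genes. Genes outside that rule were named after their values were seen. Among them were Nlrc5, Ciita, H2-DMa, Ifngr2, Rfx5, Psmb8, Psmb10, Cd80, Cd40, C1qb, Ccr2 and the dendritic cell markers other than Zbtb46. Psmb9 matched no row and was not analysed here. The deviations of same-numbered libraries correlated at 0.0131 to 0.158, with NA4 and WT4 the highest. Those of differently numbered libraries correlated at -0.0943 to 0.101. No block was used in the main test, and a replicate block was among the alternatives. There were 18 alternatives.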

Additional observations from a re-analysis of the deposited data

Results flagged for a closer look

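Among 56 sets of 4 libraries (the 28 named genes in 2 groups), 3 held a library whose gap to the nearest of the other 3 was above Dixon's 95% critical value for the share of the range, where chance gives about 1 in 20, or 2.8. H2-Aa was at 237 normalised counts in NA3, and the other NA libraries were between 161 and 174. H2-Eb1 was at 56.4 in NA2, and the other NA libraries were between 131 and 143. Ifi30 was at 3.42 in WT3, and the other WT libraries were between 15.1 and 16.9.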

How the results depend on the processing

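Among the members, 2 higher and 3 lower became 1 and 1 without the fourth library of both groups and 2 and 1 with no variance trend, where B2m (adjusted p = 0.0658) and Tap1 (adjusted p = 0.122) did not pass. Leaving out 1 library at a time gave 2 to 3 higher and 2 to 4 lower. The direction of all 10 members held under all 18 alternatives. Tap1 did not pass without a filter on low values (adjusted p = 0.103), and Tapbp passed with a mean of at least 50 (adjusted p = 0.0482) and with total-count scaling (adjusted p = 0.0308). With the replicate block, 2 members were higher and 3 lower, 7 and 4 list genes, and 1145 and 859 of all genes, and Psme2 and Creb1 did not pass. The other list genes, 8 higher and 5 lower, became 3 higher without a filter, 4 higher and 9 lower with total-count scaling, 2 and 0 without the fourth libraries, 3 lower with depth class as a covariate, and 3 and 1 with no variance trend. Leaving out 1 library gave 3 to 9 higher (3 without NA2, NA4, WT1 or WT4) and 2 to 7 lower (2 without NA4, WT2 or WT4, 3 without NA2, NA3 or WT1). Over all genes, 2053 calls became 519 without the fourth libraries, 1106 without NA4 and 1294 without WT4. With any other single library left out there were between 1504 and 2141 calls. All these settings hold fewer libraries, and the cause of the differences between them was not tested. Among the named genes the direction changed for H2-DMb1, at -0.092 to 0.10 with 1 library left out and 0.055 without the fourth libraries, and for Ifi30, at -0.050 to 0.65 with 1 library left out (-0.050 without WT3), and with 1 library left out also for Rfx5 (-0.098 to 0.14), Ifngr2 (-0.22 to 0.055) and Slamf1 (-1.09 to 0.034). A test on recovered whole reads was planned and not run, because fractional RSEM values prevented a full recovery. Genes with few reads, such as Ciita, could not be compared at this depth.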
